A study of Homo sapiens with 12 samples.

Results

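The 35 genes described here encode enzymes of the lysosome lumen, the small proteins that help those enzymes reach their lipids, and proteins of the lysosomal membrane. They were listed by symbol from their known functions, with earlier results of these data known, and all 35 were found in the deposited table of 60675 genes and lay among the 15303 genes tested. RNA was measured in MCF10A cells, an immortalized and non-tumorigenic line of human breast epithelium, either wild type (WT) or carrying guides against IL1R1 or IL1RAP, the paired subunits of the interleukin-1 receptor. The 6 groups were WT, IL1R1-KO and IL1RAP-KO cells without radiation, and each of these 3 genotypes irradiated once with 20 Gy (RT), with 2 libraries each, which the study's methods call biological replicates. The KO cells were puromycin-selected pools made with a lentiviral CRISPR plasmid, not clones, and the labels do not say which guide each library carried. All groups grew in medium with EGF, insulin, hydrocortisone, cholera toxin and horse serum, and the time between RT and the harvest of RNA was not given in the sources used here.

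Lysosomes are acid compartments in which hydrolases cut proteins, sugars, lipids and sulfated chains down to units that transporters return to the cytoplasm. Most of these hydrolases carry a mannose 6-phosphate tag that directs them from the Golgi to the lysosome, and many of their genes share an E-box in the promoter to which TFEB and its relatives bind. Cells that stop dividing after DNA damage commonly enlarge their lysosomes, and the widely used stain for such cells reads the activity of beta-galactosidase, the product of GLB1.

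The E-box core CACGTG is a sequence that members of the list are known to share, so it was looked for in the 250 bases before the start of each gene, on both strands, in the RefSeq promoters of GRCh38.p14. Of the 35 members, 26 were in that table, and 7 of them (26.9%) held CACGTG, compared with 6.34% of all 35116 promoters and 8.85% of the 10381 promoters of genes tested here. The palindrome TCACGTGA, which contains the core, and its extension by G at the start and C at the end were in 4 (15.4%) and 2 (7.69%) of the 26, against 1.69% and 0.684% of promoters of genes tested. The median GC content of the 250 bases was 68.8% in members and 64.8% in genes tested, and matches are descriptions of letters, not binding sites. The 7 sequences around the match nearest to each start follow 5′ to 3′ on the strand of the gene, with the core in capitals, since the values of these genes are compared further on.
GAA: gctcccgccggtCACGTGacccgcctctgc
NEU1: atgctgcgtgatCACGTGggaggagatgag
CTSA: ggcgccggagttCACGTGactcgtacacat
CTSD: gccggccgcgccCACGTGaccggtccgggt
LAMP1: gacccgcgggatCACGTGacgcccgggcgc
CD63: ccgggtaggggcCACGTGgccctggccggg
MCOLN1: gggctaccgggtCACGTGaccgaggc
In this build the 7 stretches lie at chr17:80101538-80101567 (GAA, plus strand), chr6:31862930-31862959 (NEU1, minus strand), chr20:45891298-45891327 (CTSA, plus strand), chr11:1763957-1763986 (CTSD, minus strand), chr13:113297199-113297228 (LAMP1, plus strand), chr12:55729172-55729201 (CD63, minus strand) and chr19:7522598-7522623 (MCOLN1, plus strand). The stretches of NEU1, LAMP1 and MCOLN1 are outside any gene of GENCODE v44, those of GAA, CTSA and CTSD overlap an exon of a transcript of the same gene that starts further upstream, and that of CD63 lies in the gene body of CD63 and in an exon of its antisense RNA CD63-AS1. LAMP1 held 5 cores, GAA, CTSA and MCOLN1 held 2 each, and the other 3 promoters held 1.

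Levels are given as scaled TPM, that is, the deposited TPM (transcripts relative to the library's sum and to gene length) divided by a trimmed-mean factor for each library (0.747 to 1.11). Changes are on the log2(scaled TPM + 1) scale, with standard errors (SE) and Benjamini-Hochberg adjusted p-values from a single limma fit over all 15303 genes. A gene counted as called where the adjusted p was below 0.05 and it changed by more than 2-fold. Counts at the same p and any fold are given beside them. Read counts were not used here, so the depth is unknown and counting intervals are left out. Mitochondrial transcripts took 18.27% to 21.14% of TPM in untreated libraries and 36.93% to 56.99% after RT, the highest being IL1RAP-KO RT replicate 2. The IL1RAP-KO RT libraries correlated with each other at r = 0.9725 across genes, the lowest value among the 6 groups. The median change of all genes was near 0 with the scaling used, but -0.21 in WT and -0.28 in IL1RAP-KO after RT with TPM as deposited, and 0.40 in IL1R1-KO and 0.33 in IL1RAP-KO when libraries were scaled to the sum of nuclear protein-coding genes. Between irradiated KO and WT cells it was 0.23 for IL1R1-KO with TPM as deposited, and 0.31 and 0.24 with the nuclear protein-coding scaling. Levels after RT are therefore relative to the other genes of a library. In bulk RNA, fewer cells with a transcript and less transcript per cell cannot be told apart.

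The labels were checked on the targeted genes. IL1RAP was 18 and 20.7 in WT and 4.41 and 4.97 in untreated IL1RAP-KO libraries (log2 difference -1.84, adjusted p = 0.0133). After RT the IL1RAP difference between these genotypes was smaller (-0.87). IL1R1 was 10.7 and 9.46 in WT and 11 and 7.82 in untreated cells labelled IL1R1-KO (-0.10, adjusted p = 1), so its RNA did not set these libraries apart, and the value of a whole gene does not show whether its reading frame was cut. The paper reports that cells with IL1R1 guides resisted the breakdown of the protein IκBα that IL-1 induces, and reads this as a successful knockout. Markers of basal mammary epithelium summed to 3910 to 4800 scaled TPM in untreated libraries and 2100 to 3320 after RT. Of 10 leukocyte and macrophage markers, 6 stayed under 1 in every library, with TYROBP at 0 in all of them. The sum of that list was 12.3 to 25.8 before and 37.2 to 83.2 after RT, with CD14 at up to 75.7. Of 7 fibroblast markers 4 stayed under 1, and the sum, mostly DCN, went from 17.9 to 23 before RT to 43.1 to 91 after it, while the endothelial sum went from 3.3 to 5.05 to 7.46 to 11. The part of these markers in the results was not tested. The kit was stranded, but the strand setting of the counting was not given, and more than 10% of the exon bases of 7 members overlap another gene of GENCODE v44. These are IDS and CTSZ, taken up with their values, CTSD (23.4% with PRADX on the other strand and 22.9% with ENSG00000250644 on the same strand), HEXA (13.2%), NAGLU (12.9%), TPP1 (11.6%) and CTSA (11.1%), so that their values may hold reads of the other gene or miss shared ones. Transcripts of dividing cells were low after RT in all 3 genotypes, with MKI67 at 41 and 46.5 in WT and 1.16 and 1.85 in WT RT, and CDKN1A, the p21 inhibitor of cell division, rose from 77.6 and 75.7 to 216 and 223.

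The first question was how the lysosomal genes responded to a single high dose in WT cells. The 35 members made up 0.3855% to 0.3973% of nuclear protein-coding TPM in the 6 untreated libraries and 0.5843% to 0.6467% in the 6 irradiated ones, and these ranges did not overlap. As deposited, the members summed to 2963.6 to 3098 TPM in untreated libraries and 2376.8 to 3814.2 in irradiated ones. Those ranges overlapped, since IL1RAP-KO RT replicate 2, at 2376.8, lay below every untreated library. With the scaling used the sums were 2833.1 to 2880.4 and 3179.9 to 4193.2. In WT, 8 of 35 members were called higher and 0 lower, against 7.02% and 6.23% of all genes tested. The 8 were GAA, CTSA, CTSB, CTSD, CTSS, SMPD1, PSAP and GRN. At any fold 21 rose and 4 fell, where 19.8% and 23.7% of all genes did. The median member changed by 0.47 on the log2 scale while that of all genes was 0, and the gap between them was 0.43 to 0.49 under the 4 scalings tried. With TPM as deposited, 3 members were called higher and 2 lower (all genes 4.69% and 10.8%). Then CTSA (0.75), CTSB (0.83), CTSD (0.87), PSAP (0.87) and GRN (0.78) changed by under 2-fold. With TPM as deposited 15 rose and 6 fell at any fold, against 10.9% and 31.9% of all genes.

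With the scaling used, the KO cells, which share no library with the WT comparison, had fewer members called higher than WT, and some called lower. In cells labelled IL1R1-KO, 4 members were called higher and 2 lower (all genes 7.97% and 8.35%), and 16 rose and 8 fell at any fold (22% and 26.1%). In IL1RAP-KO cells, 4 were called higher and 2 lower (8.09% and 9.33%), and 13 rose and 8 fell (22.7% and 27.3%). With nuclear protein-coding scaling, 10 and 7 members were called higher (all genes 17.9% and 15.7%). Then 0 were called lower (3.7% and 4.48%), as GLA, CTSC and CTSH changed by under 2-fold. With TPM as deposited 2 were called higher and 6 lower in IL1RAP-KO, where 4.79% and 16.5% of all genes were. The balance at any fold in IL1RAP-KO turned round with TPM as deposited, where 6 members rose and 12 fell (all genes 11.7% and 37.6%). Scaling to nuclear protein-coding genes gave 25 that rose and 3 that fell in IL1R1-KO (all genes 44.9% and 12.2%). In IL1RAP-KO it gave 22 and 5 (41.1% and 14.6%). The median member changed by 0.23 and 0.15, and with TPM as deposited the IL1RAP-KO median was -0.19 while that of all genes was -0.28. Across the 35 members the changes after RT correlated at r = 0.82 between WT and IL1R1-KO, 0.743 between WT and IL1RAP-KO and 0.91 between the KO genotypes, where all genes gave 0.794, 0.802 and 0.863. Genes are not independent replicates, and these values are descriptions. Of the members, 12 rose in all 3 genotypes (34.3%, against 12.1% of all genes), namely GAA, MANBA, FUCA1, IDS, CTSA, CTSB, CTSD, TPP1, ASAH1, SMPD1, PSAP and LAMP2, and 4 fell in all 3 (11.4%, against 17.9%), namely GLA, CTSH, CTSZ and PPT1. The members that rose in all 3 were 6 with TPM as deposited (17.1%, against 6.5%), namely GAA, IDS, TPP1, ASAH1, SMPD1 and PSAP, and with nuclear protein-coding scaling they were 20 (57.1%, against 19.4%). The 4 that fell were the same with TPM as deposited, but GLA alone fell in all 3 with nuclear protein-coding scaling. GLB1, NPC2, NPC1 and LAPTM4A passed the test in none of the 3 with the scaling used.

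The E-box holders were set beside the other members with a promoter in the table. Of the 7 members with CACGTG, 6 rose and 0 fell in WT at any fold (all genes 19.8% and 23.7%), 3 and 1 in IL1R1-KO (22% and 26.1%), and 3 and 1 in IL1RAP-KO (22.7% and 27.3%). Of the 19 without it, 7 rose and 4 fell in WT, 6 and 7 in IL1R1-KO, and 5 and 6 in IL1RAP-KO. With TPM as deposited 3 holders rose and 1 fell in WT, where 10.9% and 31.9% of all genes did. In IL1R1-KO 3 rose and 0 fell (20.6% and 21.9%), and in IL1RAP-KO 1 and 1 (11.7% and 37.6%). The counts for the 19 without it were 6 and 5, 5 and 5, and 3 and 10. Under nuclear protein-coding scaling 6 holders rose in each genotype, and 0, 0 and 1 fell. The 19 without it then had 9 and 4, 11 and 3, and 9 and 4. In that scaling 23.3%, 44.9% and 41.1% of all genes rose, and 18.7%, 12.2% and 14.6% fell. NEU1 was the holder that did not rise in WT, and it fell there with TPM as deposited (-0.54, adjusted p = 0.0288). The WT rises of LAMP1, CD63 and MCOLN1 did not pass with TPM as deposited. Members without a promoter in the table are in neither set. Of these, HEXA, MANBA, ARSA, CTSB, CTSS, ASAH1, PSAP and LAMP2 rose in WT with the scaling used, and NAGLU did not pass. Whether the E-box has a part in these changes was not tested.

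**Figure D1:**
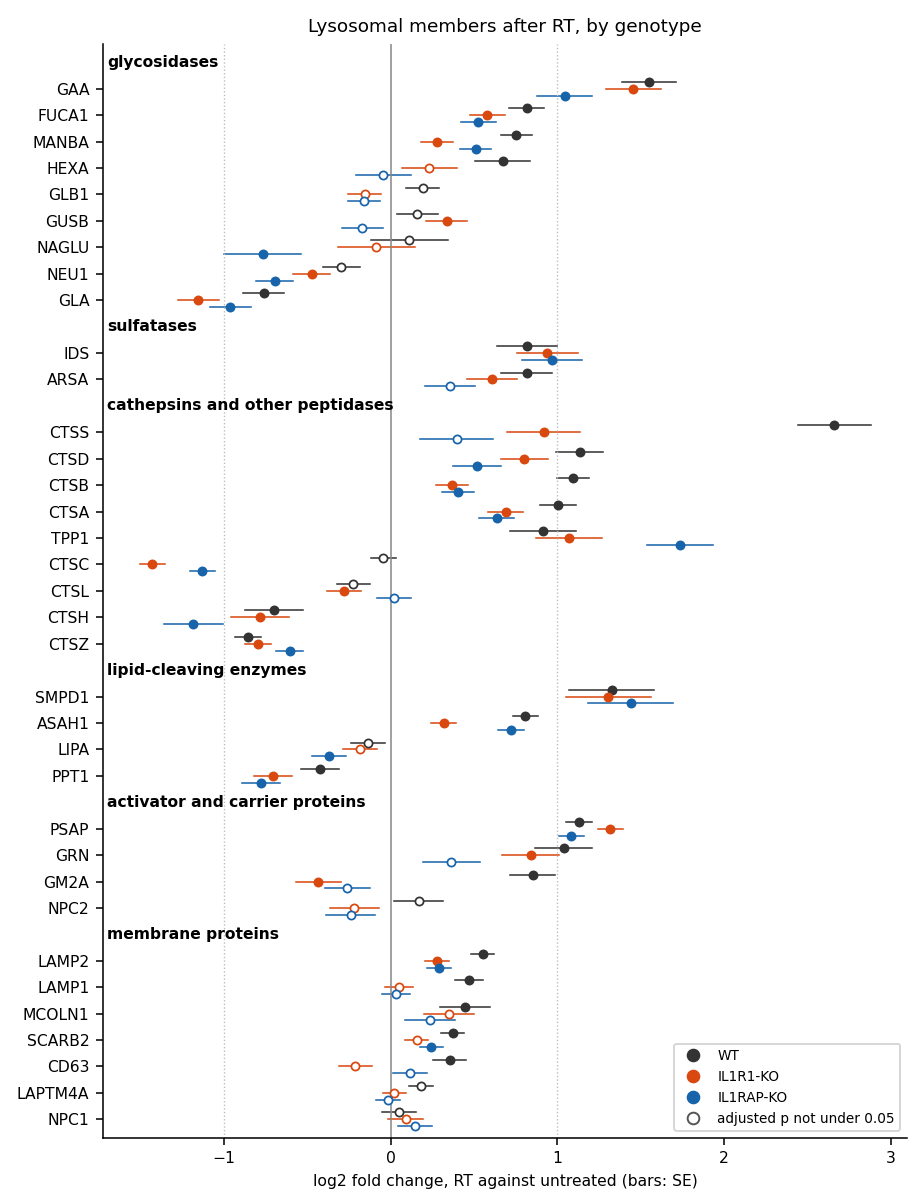
The log2 fold change of each of the 35 members after RT is plotted on the x axis for WT (black), IL1R1-KO (orange) and IL1RAP-KO (blue), with the genes grouped by role; bars are SE, filled points have an adjusted p under 0.05, and dotted lines mark a fold change of 2. CTSS in WT lies farthest to the right at 2.66, GAA, SMPD1 and PSAP lie past the right dotted line in all 3 genotypes, and CTSC lies near 0 in WT but past the left line in both KO genotypes.

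Glycosidases remove sugars from glycoproteins, glycolipids and glycogen, and 4 of the 9 rose and 1 fell in WT. GAA, the acid alpha-glucosidase that degrades glycogen (chromosome 17, 80101533 to 80119881, GRCh38, ENSG00000171298), was 6.46 and 6.19 scaled TPM in WT and 21.8 and 19.1 in WT RT. It was 5.97 and 5.42 in IL1R1-KO and 16.8 and 17.9 after RT, and 6.02 and 6.46 in IL1RAP-KO and 16.9 and 11.4 after RT. Every irradiated library was thus above every untreated one. The log2 changes were 1.55 (SE 0.16, adjusted p = 6.09e-05) in WT, 1.46 (SE 0.16, 6.52e-05) in IL1R1-KO and 1.04 (SE 0.16, 0.000547) in IL1RAP-KO. In IL1RAP-KO the change was 0.78 without IL1RAP-KO RT replicate 1, and 1.00 without IL1RAP-KO replicate 1, both under 2-fold before rounding. With TPM as deposited the IL1RAP-KO change of GAA was 0.73, also under 2-fold. GAA also held the largest number of the extended, 10-letter palindrome among members, with 2 copies.

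GLB1, the beta-galactosidase whose enzyme activity is read by the senescence stain (chromosome 3, 32996609 to 33097202, ENSG00000170266), stayed near its starting level. It was 38.7 and 39 in WT and 45.6 and 43.5 in WT RT, 42.1 and 42.5 in IL1R1-KO and 36.1 and 39.8 after RT, and 40.3 and 47.8 in IL1RAP-KO and 37.6 and 40.9 after RT. The libraries of WT and WT RT did not overlap, but the difference was small. The log2 changes were 0.19 (95% interval -0.03 to 0.41, adjusted p = 0.141), -0.15 (-0.37 to 0.06, 0.219) and -0.16 (-0.38 to 0.06, 0.202). The direction depended on the scaling. The change of GLB1 in WT was -0.065 (adjusted p = 0.691) with TPM as deposited, and under nuclear protein-coding scaling it was 0.31 (0.0289) in WT, 0.32 (0.0182) in IL1R1-KO and 0.24 (0.0562) in IL1RAP-KO. In IL1RAP-KO the fall passed with TPM as deposited (-0.49, adjusted p = 0.00578). A change of 2-fold lay outside each of the 3 intervals with the scaling used.

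GLA, the alpha-galactosidase that is missing in Fabry disease (chromosome X, 101393273 to 101408012, ENSG00000102393), went the other way. It was 26.2 and 24.6 in WT and 14.2 and 15 in WT RT, 31.3 and 26.5 before and 13.8 and 11.1 after RT in IL1R1-KO, and 25.4 and 23.9 before and 11.6 and 12.8 after RT in IL1RAP-KO, with no overlap between irradiated and untreated libraries. It fell in WT (-0.76, adjusted p = 0.000913), in IL1R1-KO (-1.15, adjusted p = 4.89e-05) and in IL1RAP-KO (-0.96, adjusted p = 0.000163), and passed 2-fold in IL1R1-KO. NAGLU, which cleaves N-acetylglucosamine from heparan sulfate (chromosome 17, 42536241 to 42544449, ENSG00000108784), was 10.4 and 9.8 in WT and 12.6 and 9.66 in WT RT, 8.01 and 8.72 before and 7.1 and 8.62 after RT in IL1R1-KO, and 9.62 and 8.02 before and 6.48 and 3.42 after RT in IL1RAP-KO. It fell in IL1RAP-KO (-0.77, adjusted p = 0.0192), where the lower of the irradiated values came from the library with the highest mitochondrial share. Without that library the NAGLU change was -0.39 (adjusted p = 0.124), and the adjusted p was 0.109 without IL1RAP-KO replicate 1.

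The other glycosidases moved less than 2-fold. HEXA, a subunit of the hexosaminidase that degrades GM2 ganglioside and the glycosidase of highest mean level (48.5 over the 12 libraries), rose in WT (0.67, adjusted p = 0.00855) but was at 43.4 and 44.3 before and 53 and 34 after RT in IL1RAP-KO. The WT rise of HEXA was 0.41 (adjusted p = 0.189) with TPM as deposited. FUCA1, which removes fucose, rose in all 3 genotypes (0.82, 0.58 and 0.53), and so did MANBA, the beta-mannosidase (0.75, 0.28 and 0.51). The IL1RAP-KO changes with TPM as deposited were 0.20 (adjusted p = 0.261) for FUCA1 and 0.18 (0.262) for MANBA. GUSB, the beta-glucuronidase, passed only in IL1R1-KO with the scaling used (0.34, adjusted p = 0.0463). With TPM as deposited GUSB fell in IL1RAP-KO (-0.50, adjusted p = 0.0384). The IL1R1-KO rises of MANBA and GUSB did not pass when any of the 4 IL1R1-KO libraries was left out, with adjusted p of 0.051 to 0.155 for MANBA and 0.0896 to 0.186 for GUSB. NEU1, the sialidase, fell in IL1R1-KO (-0.47, adjusted p = 0.00587) and IL1RAP-KO (-0.69, adjusted p = 0.000616) and was -0.30 in WT (adjusted p = 0.054). Its IL1R1-KO fall did not pass with TPM as deposited or with nuclear protein-coding scaling (-0.44 and -0.02).

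Sulfatases remove sulfate groups from lipids and glycosaminoglycans, and both members rose in WT. IDS, the iduronate sulfatase, rose in all 3 genotypes (0.82, 0.94 and 0.97), from 9.82 and 12.1 to 16.6 and 24.2 in WT. Since 75% of its exon bases are shared with a readthrough gene on the same strand in GENCODE v44, its counts could be split between these genes. ARSA, the arylsulfatase of myelin lipids, rose in WT (0.82, adjusted p = 0.00183) and IL1R1-KO (0.61, adjusted p = 0.00784), with 0.35 in IL1RAP-KO (adjusted p = 0.0754).

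Cathepsins are the main peptidases of the lysosome, and they moved in both directions. Among the 9 peptidases the counts of higher and lower members were 5 and 2 in WT, 5 and 4 in IL1R1-KO, and 4 and 3 in IL1RAP-KO, and the changes in WT ranged from -0.85 to 2.66. CTSD, the aspartic cathepsin D, and CTSB, the cysteine cathepsin B, were the most abundant, with means of 361 and 174 scaled TPM over the 12 libraries.

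CTSD (chromosome 11, 1752752 to 1764573, ENSG00000117984) was 276 and 249.8 in WT and 576 and 577 in WT RT, 257 and 256 before and 436 and 458 after RT in IL1R1-KO, and 256 and 252 before and 441 and 301 after RT in IL1RAP-KO. It was higher in each irradiated library than in any untreated library, and it rose in WT by 1.13 (SE 0.14, adjusted p = 0.000173), in IL1R1-KO by 0.80 (0.0012) and in IL1RAP-KO by 0.52 (0.0129). In IL1RAP-KO the CTSD change was 0.17 (adjusted p = 0.54) with TPM as deposited. The change was 0.24 without IL1RAP-KO RT replicate 1 and 0.79 without IL1RAP-KO RT replicate 2, and the adjusted p was 0.051 and 0.0613 without replicate 1 or 2 of untreated IL1RAP-KO. CTSA, the carboxypeptidase that also protects beta-galactosidase and sialidase (chromosome 20, 45890144 to 45898949, ENSG00000064601), was 31.3 and 29.6 in WT and 65.1 and 59.2 in WT RT, 32.2 and 29.3 before and 50.7 and 49.7 after RT in IL1R1-KO, and 33 and 28.5 before and 51.9 and 44.8 after RT in IL1RAP-KO. Its change in WT was 1.00 (SE 0.11, adjusted p = 5.94e-05), at the 2-fold line, and it was 0.96 without WT replicate 2 and 0.94 without WT RT replicate 1. CTSA rose by 0.69 (adjusted p = 0.000487) in IL1R1-KO and by 0.64 (0.000777) in IL1RAP-KO, the latter 0.30 (0.151) with TPM as deposited. TPP1, which takes tripeptides off the ends of proteins (chromosome 11, 6612768 to 6619448, ENSG00000166340), had the reverse order of genotypes. It was 17.1 and 19.2 in WT and 34.6 and 35.5 in WT RT, 24.8 and 19.4 before and 50.4 and 44 after RT in IL1R1-KO, and 18.6 and 19.7 before and 51.7 and 84.2 after RT in IL1RAP-KO. The changes were 0.92 (adjusted p = 0.00444), 1.07 (0.00153) and 1.73 (7.52e-05), and TPP1 was the only member that passed as higher in IL1RAP-KO RT than in WT RT with the scaling used (0.89, adjusted p = 0.0188). The highest value came from the library with the highest mitochondrial share, IL1RAP-KO RT replicate 2, and the difference between TPP1 in IL1RAP-KO RT and WT RT was 0.55 (adjusted p = 0.0683) without it. The adjusted p of that difference was also 0.11 without WT RT replicate 1 and 0.0682 without WT RT replicate 2. In IL1R1-KO the TPP1 change was 0.90 without IL1R1-KO replicate 2 and 0.98 without IL1R1-KO RT replicate 1, both under 2-fold.

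CTSS, cathepsin S, an enzyme best known from antigen-presenting cells (chromosome 1, 150730079 to 150765957, ENSG00000163131), showed the largest change of any member. It was 0.494 and 0.982 in WT and 9.7 and 10 in WT RT, 1.02 and 0.859 before and 2.27 and 3.11 after RT in IL1R1-KO, and 1.04 and 0.737 before and 1.16 and 1.85 after RT in IL1RAP-KO. Every irradiated library lay above every untreated one, and the WT RT libraries stood well above the rest. CTSS rose in WT by 2.66 on the log2 scale (SE 0.22, adjusted p = 1.37e-05) and in IL1R1-KO by 0.92 (adjusted p = 0.00636; 0.0523 without IL1R1-KO RT replicate 2), and the change in IL1RAP-KO was 0.40 (adjusted p = 0.158). Untreated levels were at most 1.04, where the pseudocount of 1 shrinks the fold change. Among the leukocyte markers, CD14 was 19.4 and 19.3 in WT, 49.4 and 75.7 in WT RT and 54.2 and 49.2 in IL1R1-KO RT, and PTPRC, CD3E and CD163 were under 1 in every library. Of that list 4 markers were tested, and their responses in KO and WT differed in both directions. The differences were -0.76 to 0.55 in IL1R1-KO and -0.78 to 1.44 in IL1RAP-KO, and 0 passed. Whether these markers have a part in the CTSS values was not tested.

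CTSB (cathepsin B, ENSG00000164733) was 142 and 133 in WT and 311 and 279.9 in WT RT, 141 and 129 before and 176 and 172 after RT in IL1R1-KO, and 131 and 127 before and 186 and 157 after RT in IL1RAP-KO. It rose in all 3 genotypes, by 1.10 (adjusted p = 1.9e-05) in WT and by 0.37 (0.0101) and 0.40 (0.00618) in the KO cells. The KO changes of CTSB with TPM as deposited were 0.40 (adjusted p = 0.0656) and 0.060 (0.78), and in IL1R1-KO the adjusted p was 0.0725 without IL1R1-KO replicate 2 and 0.0558 without IL1R1-KO RT replicate 1. CTSC, the dipeptidyl peptidase that activates serine proteases of granules (chromosome 11, 88265069 to 88359684, ENSG00000109861), was 111 and 117 in WT and 107 and 114 in WT RT. In contrast, it was 127 and 117 and then 43.1 and 46.4 in IL1R1-KO, and 108 and 109.6 and then 49.9 and 48.4 in IL1RAP-KO. It fell by 1.43 in IL1R1-KO (SE 0.076, adjusted p = 8.07e-07) and by 1.13 in IL1RAP-KO (SE 0.076, 3.16e-06), while in WT the change was -0.04 (95% interval -0.21 to 0.13).

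The other cysteine cathepsins among the members did not rise with the scaling used. CTSH, an aminopeptidase (chromosome 15, 78921058 to 78949574, ENSG00000103811), was 41.3 and 40 in WT and 23.2 and 26.4 in WT RT, 28.4 and 45.8 before and 20.4 and 20.8 after RT in IL1R1-KO, and 41.5 and 44.5 before and 18.2 and 18.6 after RT in IL1RAP-KO. It fell in WT (-0.70, adjusted p = 0.00945), in IL1R1-KO (-0.78, adjusted p = 0.00449) and in IL1RAP-KO (-1.18, adjusted p = 0.000375), past 2-fold in the last. With nuclear protein-coding scaling the change of CTSH in IL1R1-KO was -0.32 (adjusted p = 0.166), and in WT its adjusted p was 0.0512 without WT replicate 1 and 0.0659 without WT RT replicate 1. CTSZ, a carboxypeptidase, fell in all 3 genotypes (-0.85, -0.79 and -0.60; the last -0.20, adjusted p = 0.0931, with nuclear protein-coding scaling), although 31.7% of its exon bases overlap NELFCD on the other strand. CTSL, cathepsin L, passed only in IL1R1-KO with the scaling used (-0.28, adjusted p = 0.0443). It did not pass there with TPM as deposited (adjusted p = 0.138), and the change was above 0 when scaled to nuclear protein-coding genes. In WT CTSL fell with TPM as deposited (-0.48, adjusted p = 0.00977), and in IL1RAP-KO it rose with nuclear protein-coding scaling.

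**Figure D2:**
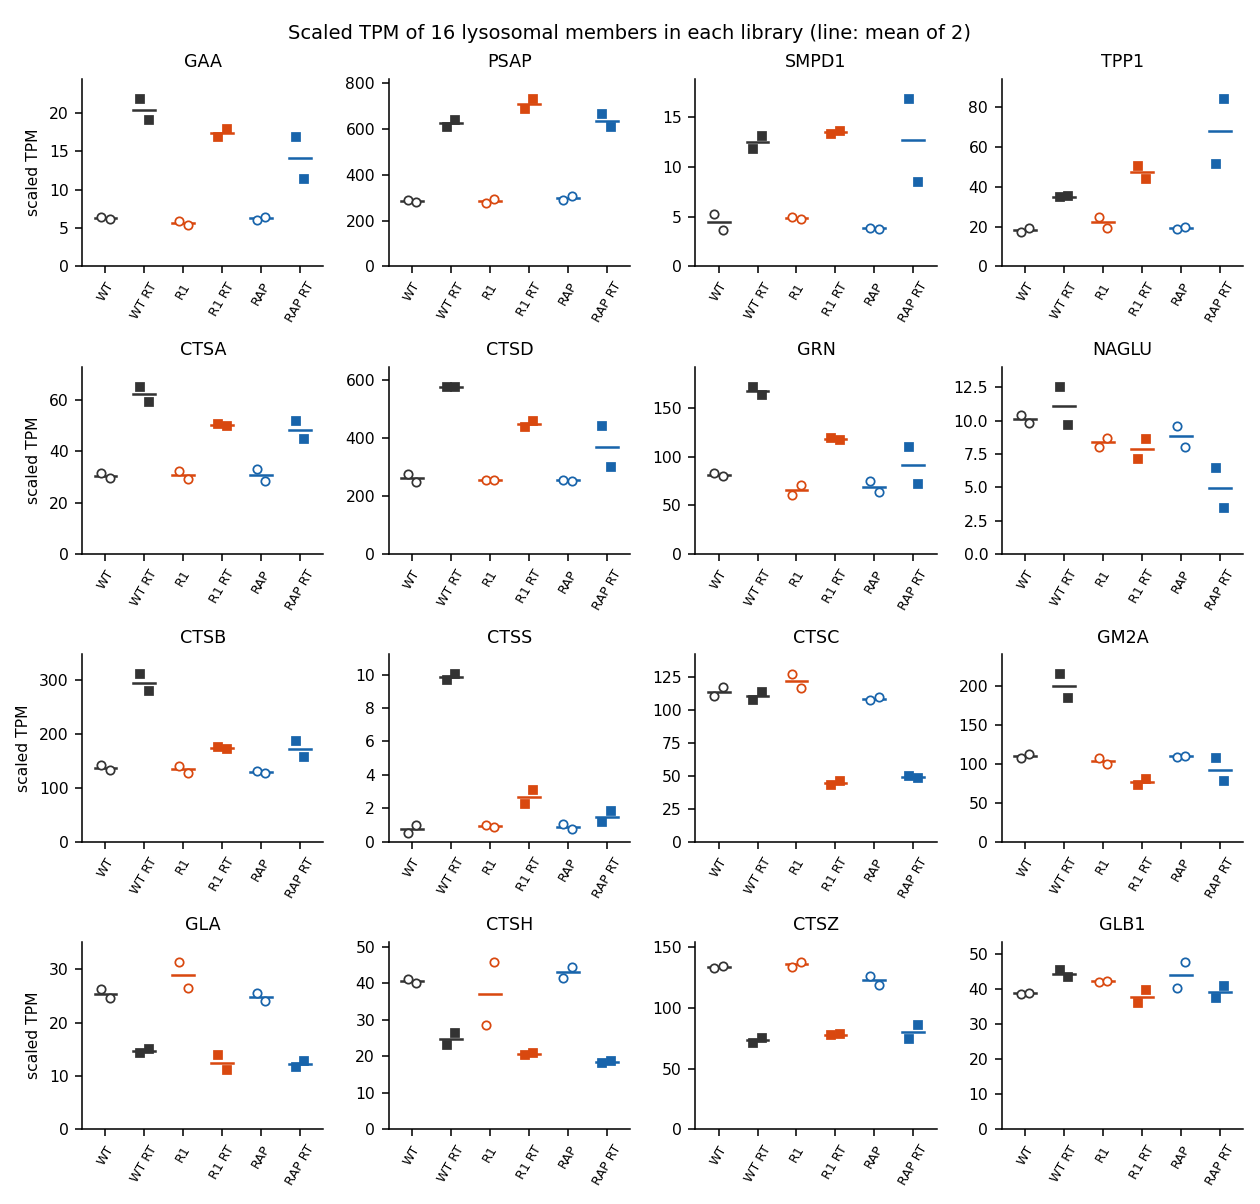
Scaled TPM of 16 members are plotted on the y axis, from 0, for each of the 12 libraries (open circles untreated, filled squares after RT; R1 and RAP stand for IL1R1-KO and IL1RAP-KO; points of a group are set side by side and the line is their mean). GAA, PSAP, SMPD1 and TPP1 are higher after RT in all 3 genotypes, CTSS and GM2A are high in the WT RT libraries, CTSC is low in the 4 irradiated KO libraries, and GLB1 lies between 36.1 and 47.8 throughout.

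Enzymes that cut lipids were mixed, with 2 of 4 rising and 1 falling in WT. SMPD1, the acid sphingomyelinase that makes ceramide (chromosome 11, 6390440 to 6394998, ENSG00000166311), was 5.29 and 3.61 in WT and 11.8 and 13.2 in WT RT, 4.98 and 4.74 before and 13.3 and 13.6 after RT in IL1R1-KO, and 3.84 and 3.78 before and 16.9 and 8.52 after RT in IL1RAP-KO. Every irradiated library was above every untreated one. The changes were 1.33 (SE 0.25, adjusted p = 0.00227), 1.31 (0.00206) and 1.44 (0.00112), and the last was 0.98 without IL1RAP-KO RT replicate 1. ASAH1, the acid ceramidase that breaks ceramide down, rose in WT (0.81, adjusted p = 3.12e-05), IL1R1-KO (0.32, adjusted p = 0.00658) and IL1RAP-KO (0.72, adjusted p = 4.39e-05). LIPA, the acid lipase of cholesteryl esters and the most abundant of these enzymes (mean 112), was -0.13 in WT and fell in IL1RAP-KO (-0.37, adjusted p = 0.0132), with the opposite sign there under nuclear protein-coding scaling. PPT1, which removes palmitate from proteins, fell in all 3 (-0.42, -0.70 and -0.78). The WT fall of PPT1 did not pass without WT replicate 2 or WT RT replicate 2 (adjusted p = 0.11 and 0.118), nor did the IL1R1-KO fall with nuclear protein-coding scaling (0.0913).

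Activator and carrier proteins present lipids to the hydrolases or move them on, and 3 of the 4 rose in WT. PSAP, the precursor of the saposins and the most abundant member (mean 473, chromosome 10, 71816298 to 71851251, ENSG00000197746), was 289 and 281 in WT and 609 and 640.1 in WT RT, 274 and 294 before and 687 and 731 after RT in IL1R1-KO, and 291 and 307 before and 664 and 608 after RT in IL1RAP-KO. Every irradiated library was above every untreated one. It rose by 1.13 (SE 0.076, adjusted p = 4.01e-06), 1.32 (1.16e-06) and 1.08 (3.84e-06), over 2-fold in each genotype, though by 0.87 in WT and 0.74 in IL1RAP-KO with TPM as deposited. GRN, the precursor of the granulins (chromosome 17, 44345246 to 44353106, ENSG00000030582), was 83 and 79.9 in WT and 172 and 164 in WT RT, 61 and 71.1 before and 120.0 and 117 after RT in IL1R1-KO, and 75 and 63.6 before and 111 and 71.8 after RT in IL1RAP-KO, where the groups overlapped. It rose in WT (1.04, adjusted p = 0.000935) and IL1R1-KO (0.84, adjusted p = 0.00261).

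GM2A, the activator that lifts GM2 ganglioside out of membranes for HEXA (chromosome 5, 151212150 to 151270440, ENSG00000196743), rose in WT and, with the scaling used, fell in IL1R1-KO. A rise in WT with a fall in either KO genotype was seen in no other member and in 0.281% of all genes. It was 108 and 112 in WT and 216 and 185 in WT RT, 108 and 100.5 before and 73.6 and 80.8 after RT in IL1R1-KO, and 109.5 and 110.0 before and 108 and 78 after RT in IL1RAP-KO. The WT RT libraries were above all 10 others. The change was 0.85 (SE 0.14, adjusted p = 0.000814) in WT, -0.43 (0.0254) in IL1R1-KO and -0.26 (0.144) in IL1RAP-KO, and that of IL1R1-KO had the opposite sign under nuclear protein-coding scaling. The IL1R1-KO fall of GM2A passed under 4 of 11 alternatives, and its adjusted p was 0.0511 to 0.136 when each of the 4 IL1R1-KO libraries was left out. NPC2, which carries cholesterol inside the lysosome (mean 255), did not pass in any genotype after RT with the scaling used (0.17, -0.22 and -0.24). With TPM as deposited NPC2 fell in IL1RAP-KO (-0.58, adjusted p = 0.0111).

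The 7 membrane proteins moved little, and no member of this role passed 2-fold in any comparison. In WT 5 of them rose at any fold, LAMP2 (0.55, adjusted p = 0.000201), LAMP1 (0.47, adjusted p = 0.0015), MCOLN1 (0.45, adjusted p = 0.0358), SCARB2 (0.37, adjusted p = 0.00204) and CD63 (0.35, adjusted p = 0.0179), but 0 passed with TPM as deposited and 6 with nuclear protein-coding scaling. LAMP1 and LAMP2 are the glycoproteins that line the inner face of the membrane, and LAMP1 went from 107 and 109 to 151 and 148 in WT, which did not overlap. CD63, a tetraspanin and the most abundant of the 7 (mean 311), went from 286 and 294 to 410.0 and 336. SCARB2 carries glucocerebrosidase to lysosomes, and MCOLN1 is the calcium channel TRPML1. LAPTM4A, a small transmembrane protein (mean 199), and NPC1, the cholesterol exporter, passed in no comparison with the scaling used, with changes in WT of 0.18 and 0.05. In IL1R1-KO only LAMP2 rose, and in IL1RAP-KO LAMP2 and SCARB2 did, each with a change below 0 in IL1RAP-KO when TPM were used as deposited. The KO rises of LAMP2 and SCARB2 also failed to pass without single libraries (adjusted p of up to 0.0607 and 0.0797).

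The second question was whether loss of either receptor subunit changed these genes, first without radiation. No member passed the test in untreated IL1R1-KO or IL1RAP-KO cells against WT, with the limma fit and any fold, where the calls over all genes were 0.0196% higher and 0.118% lower, and 0% and 0.098% (at any fold 0.0196% and 0.163%, and 0% and 0.124%). The member medians differed by 0.02 and 0.01, and with no alternative setting was a member called more than 2-fold higher or lower. At an unadjusted p under 0.05, 0 members differed in either comparison.

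After RT, the KO cells were compared with WT cells that had received the same dose. Both comparisons use the same WT RT libraries. In IL1R1-KO, 0 members were called higher and 3 lower (all genes 1.16% and 1.95%), and at any fold 0 were higher and 9 lower (4.65% and 7.59%). In IL1RAP-KO, 0 were called higher and 4 lower (0.804% and 2.08%), and at any fold 1 was higher and 12 lower (5.6% and 9.32%). The median member differed by -0.25 and -0.27 while that of all genes was near 0. The difference between the members' median and that of all genes was -0.25 to -0.21 in IL1R1-KO and -0.28 to -0.22 in IL1RAP-KO under the 4 scalings, although the median itself was 0.01 and 0.10 in IL1R1-KO with TPM as deposited and with nuclear protein-coding scaling, and 0.02 in IL1RAP-KO with the latter. With nuclear protein-coding scaling 9 members were higher and 4 lower in IL1R1-KO at any fold (all genes 31% and 3.26%). In IL1RAP-KO 7 were higher and 7 lower (26.2% and 3.87%). In that scaling 1 member was over 2-fold lower in each (1.3% and 1.51%), and 1 over 2-fold higher in IL1RAP-KO (2.4%). With TPM as deposited 3 were higher and 3 lower at any fold in IL1R1-KO (12.2% and 2.48%). The counts in IL1RAP-KO were then 1 and 8 (1.65% and 4.54%). The count of lower members at any fold also depended on single libraries, being 5 in IL1R1-KO and 5 in IL1RAP-KO without WT RT replicate 1, 4 in IL1R1-KO without either of its RT libraries, and 7 in IL1RAP-KO when replicate 2 of either irradiated group was left out. Without IL1RAP-KO RT replicate 1, 2 were higher and 15 lower in IL1RAP-KO. When the fit held only the libraries compared, 1 was lower in IL1RAP-KO, CTSC, and 8 in IL1R1-KO.

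The members called lower were CTSC, CTSS and GM2A in both comparisons and NAGLU in IL1RAP-KO. CTSC was 110.5 ± 4.64 (SD, n = 2) in irradiated WT, 44.7 ± 2.29 in irradiated IL1R1-KO and 49.1 ± 1.06 in irradiated IL1RAP-KO cells, with differences of -1.29 (adjusted p = 8.26e-06) and -1.15 (2.48e-05). CTSS was 9.86 ± 0.226, 2.69 ± 0.596 and 1.5 ± 0.489, with differences of -1.57 (adjusted p = 0.00189) and -2.13 (0.000354). GM2A was 200.1 ± 21.8, 77.2 ± 5.11 and 92.8 ± 21, with differences of -1.36 (0.00026) and -1.11 (0.00118), the latter -0.88 without IL1RAP-KO RT replicate 2. NAGLU was 11.1 ± 2.04 in WT RT and 4.95 ± 2.16 in IL1RAP-KO RT (-1.06, adjusted p = 0.0172), and its adjusted p was 0.0697 without IL1RAP-KO RT replicate 2 and 0.128 without WT RT replicate 1. Under nuclear protein-coding scaling CTSC (-0.93 and -0.86), GM2A (-0.998 and -0.82) and NAGLU (-0.81) were lower by under 2-fold, and CTSS stayed past 2-fold in both comparisons. All of the CTSC, CTSS and GM2A libraries of irradiated KO cells were below those of irradiated WT cells.

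Under 2-fold, CTSB was lower in both (-0.76, adjusted p = 0.00103, and -0.78, 0.00115), and so was LAMP1 (-0.37 and -0.37). In IL1R1-KO, ASAH1 (-0.39), NPC2 (-0.55), LAMP2 (-0.25) and CD63 (-0.43) were also lower, and in IL1RAP-KO, HEXA (-0.69), FUCA1 (-0.45), ARSA (-0.73), CTSA (-0.36), CTSD (-0.66) and GRN (-0.91). Most of these smaller differences depended on the scaling or on single libraries. In IL1R1-KO with nuclear protein-coding scaling, LAMP1 was -0.006 (adjusted p = 0.969), ASAH1 -0.03 (0.789), CD63 -0.06 (0.605) and NPC2 -0.18 (0.371), and LAMP2 had the opposite sign with both this scaling and TPM as deposited. The IL1R1-KO difference of CTSB did not pass with TPM as deposited (-0.49, adjusted p = 0.0662). In IL1RAP-KO with nuclear protein-coding scaling, LAMP1 was -0.08, HEXA -0.40, FUCA1 -0.17, CTSA -0.07 and CTSD -0.37, with adjusted p of 0.0679 to 0.636. Without IL1RAP-KO RT replicate 2, HEXA was -0.37 (adjusted p = 0.0585), ARSA -0.62 (0.0711), CTSA -0.25 (0.214), LAMP1 -0.26 (0.0577), CTSD -0.39 and GRN -0.60. Without WT RT replicate 1 the adjusted p in IL1RAP-KO was 0.0771 for GRN, 0.0927 for ARSA and 0.0967 for CTSD. PSAP and SMPD1, which rose over 2-fold in each genotype, did not pass in either comparison, with 95% intervals of 0.01 to 0.35 and -0.15 to 0.19 for PSAP and -0.47 to 0.67 and -0.62 to 0.52 for SMPD1.

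**Figure D3:**
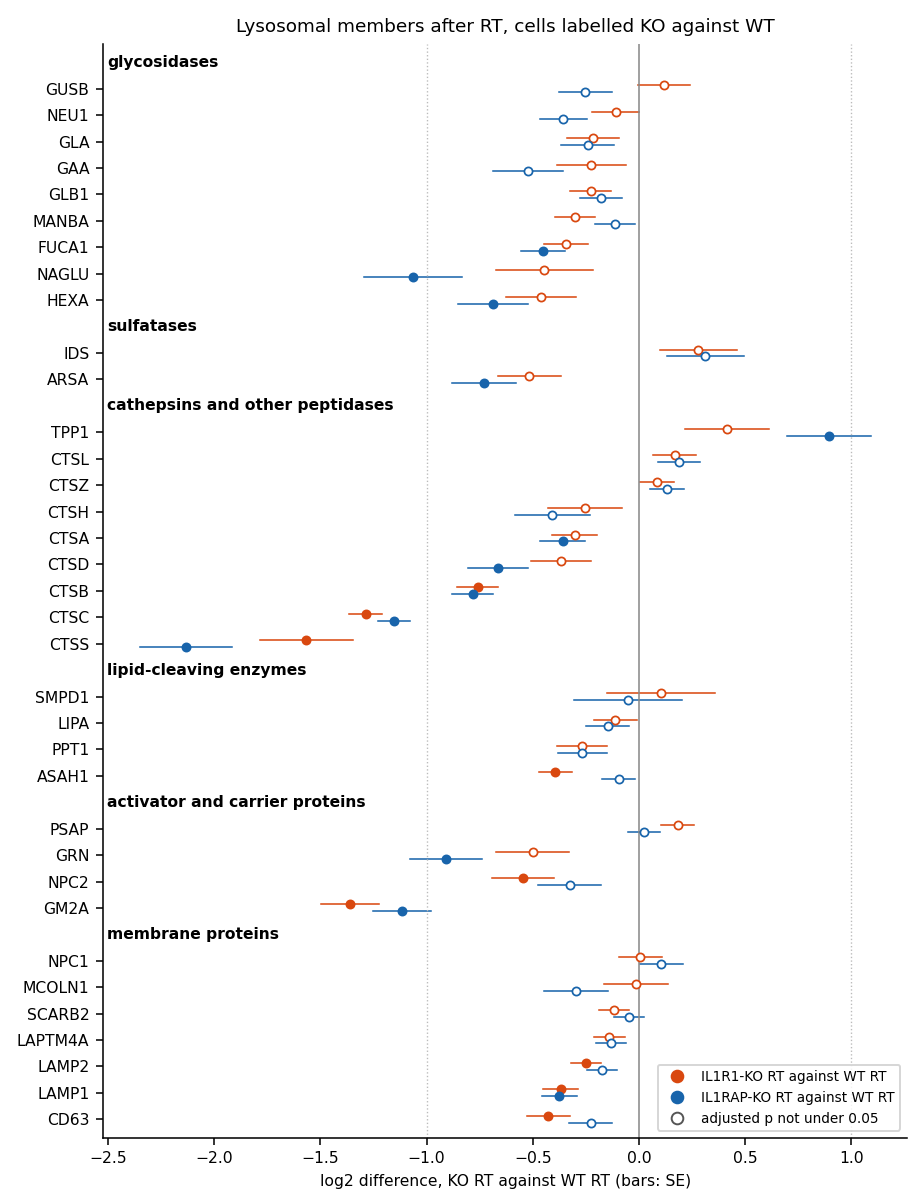
The log2 difference of each member between irradiated KO and irradiated WT cells is plotted on the x axis, for IL1R1-KO (orange) and IL1RAP-KO (blue), which share the WT RT libraries; bars are SE, filled points have an adjusted p under 0.05 and dotted lines mark 2-fold. CTSS, CTSC and GM2A lie past the left dotted line in both, NAGLU in IL1RAP-KO, and TPP1 in IL1RAP-KO is the only filled point to the right of 0.

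The difference between the responses was tested directly, as the change after RT in KO cells minus that in WT cells. Of 35 members, 0 were called higher and 3 lower for IL1R1-KO (all genes 0.503% and 0.954%), and 0 and 3 for IL1RAP-KO (0.157% and 0.673%), and at any fold 5 and 4 were lower, where the shares of all genes higher and lower were 0.804% and 2.01% for IL1R1-KO and 0.301% and 1.06% for IL1RAP-KO. CTSC differed by -1.38 (SE 0.11, adjusted p = 0.000289) and -1.08 (0.00163), CTSS by -1.74 (0.0195) and -2.26 (0.00967), and GM2A by -1.28 (0.00912) and -1.11 (0.0279). CTSB differed by -0.73 (0.0235) and -0.69 (0.042), and ASAH1 by -0.49 (0.0449) in IL1R1-KO only, which was not tested against IL1RAP-KO. The count of lower members at any fold was 2 and 2 with TPM as deposited, and 1 to 5 and 1 to 11 when each library was left out, the 11 being without IL1RAP-KO RT replicate 1. CTSC passed at an adjusted p under 0.05 under every alternative. For the other genes the call depended on the scaling or on single libraries. When TPM were used as deposited, GM2A differed by -0.99 (adjusted p = 0.105) and -1.19 (0.13), CTSB by -0.43 (0.32) and -0.77 (0.233), and ASAH1 by -0.19 (0.58). Under nuclear protein-coding scaling CTSB differed by -0.36 (0.0899) and -0.40 (0.0871) and ASAH1 by -0.13 (0.482), and GM2A passed at under 2-fold (-0.92 and -0.82), as did CTSC in IL1RAP-KO (-0.80). CTSB passed under 7 of 15 alternatives in IL1R1-KO and 3 of 15 in IL1RAP-KO, and ASAH1 under 2 of 15. For CTSS and GM2A there was a highest adjusted p, when each library was left out in turn, of 0.0885 and 0.0526 in IL1R1-KO, and of 0.0533 and 0.129 in IL1RAP-KO. Without WT replicate 1, WT RT replicate 1 or IL1R1-KO RT replicate 1, CTSC alone was called lower for IL1R1-KO, and for IL1RAP-KO 1 member was called without IL1RAP-KO replicate 1 or WT RT replicate 1 and 5 without IL1RAP-KO RT replicate 1. Of the 35 members, 27 (77.1%, against 37.9% of all genes) had a higher log2 change after RT in WT than in both KO genotypes, which are set against the same WT libraries. The count was 14 (40%, against 22.5%) with TPM as deposited and 7 (20%, against 14.4%) with nuclear protein-coding scaling, the 7 being HEXA, CTSB, CTSC, CTSS, GM2A, NPC2 and LAMP1.

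Genes that share a pathway with the members were described from lists put together with earlier results of these data known. At any fold, 19.8% of all genes rose and 23.7% fell in WT, 22% and 26.1% in IL1R1-KO, and 22.7% and 27.3% in IL1RAP-KO. With TPM as deposited, 10.9% of all genes rose and 31.9% fell in WT. Of 24 other lysosomal hydrolases tested, 12 rose and 4 fell in WT at any fold, 8 and 4 in IL1R1-KO, and 7 and 8 in IL1RAP-KO, but 6 and 6 in WT with TPM as deposited. CTSF, cathepsin F, was 9.85 and 9.7 in WT and 40.7 and 41.3 in WT RT and rose in all 3 genotypes (1.96, 1.63 and 1.51), as did IDUA, the alpha-iduronidase (1.60, 1.43 and 0.97) and CTSO, cathepsin O (0.65, 0.96 and 1.24).

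The proton pump that acidifies the lysosome had 7 of 16 subunits higher and 1 lower in WT at any fold (2 and 1 with TPM as deposited). In IL1R1-KO 4 rose and 1 fell, and in IL1RAP-KO 5 rose and 3 fell. The subunit that fell in WT was ATP6V0A2 (-1.01 in WT, -1.03 in IL1R1-KO and -0.84 in IL1RAP-KO), and ATP6V0E1 rose in all 3 (0.80, 0.55 and 0.71). Of 18 other lysosomal membrane proteins, 7 rose and 3 fell in WT (4 and 4 with TPM as deposited), 5 and 5 in IL1R1-KO, and 5 and 6 in IL1RAP-KO. LAPTM5, best known from blood cells, was 71.8 and 75.8 in WT and 12.6 and 10.3 in WT RT and fell in all 3 (-2.59, -1.67 and -1.49), and it was higher in both irradiated KO groups than in WT RT (1.01 and 1.24). LAMP3, an inducible relative of LAMP1, was 0.75 and 0.972 in WT, 3.04 and 7.72 in WT RT, and after RT 14 and 15.4 in IL1R1-KO and 11.9 and 13.7 in IL1RAP-KO cells. TPCN1, an ion channel of the endolysosome, rose in WT (0.91, adjusted p = 0.000286) and fell in IL1R1-KO (-0.42, 0.0177) and IL1RAP-KO (-0.67, 0.00149), and the responses differed by -1.34 (0.00475) and -1.58 (0.00279).

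Among transcription factors and nutrient sensors of the lysosome, 4 of 18 (22.2%) rose and 2 (11.1%) fell in WT, where 19.8% and 23.7% of all genes did. The counts in WT were 2 and 4 with TPM as deposited, and with the scaling used 3 and 3 in IL1R1-KO and 6 and 6 in IL1RAP-KO. TFEB, at a mean of 3.2, and TFE3, at 17.1, passed in no genotype after RT (0.07 and -0.14 in WT), whereas their relative MITF rose in WT (0.98, adjusted p = 0.0052), IL1R1-KO (1.47, adjusted p = 0.000387) and IL1RAP-KO (1.72, adjusted p = 0.000144); TFEB and TFE3 were chosen for naming after their values were seen. RNA levels do not report the nuclear entry by which these factors are known to act. Of 16 genes of enzyme sorting, 5 rose and 1 fell in WT (0 and 6 with TPM as deposited), 4 and 4 in IL1R1-KO, and 2 and 2 in IL1RAP-KO. The gene that fell in WT was CLN6, a protein of the export step from the endoplasmic reticulum (-1.29, -1.49 and -1.66 in the 3 genotypes). M6PR, a mannose 6-phosphate receptor, was 85.6 and 76.8 in WT and 67.1 and 74.4 in WT RT. Of 20 autophagy genes, 9 rose and 1 fell in WT, 6 and 1 in IL1R1-KO and 7 and 1 in IL1RAP-KO, but 4 and 4 in WT with TPM as deposited. MAP1LC3B and GABARAPL1, which coat the autophagosome, rose over 2-fold in each genotype (1.07, 1.34 and 1.18, and 1.53, 1.88 and 1.88).

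Inhibitors of cathepsins had 5 of 8 tested genes higher and 1 lower in WT (62.5% and 12.5%, against 19.8% and 23.7% of all genes). In IL1R1-KO 2 rose and 3 fell, and in IL1RAP-KO 1 rose and 0 fell. CST3, the secreted cystatin C, was 120.4 and 114 in WT and 596 and 611 in WT RT and rose in all 3 genotypes (2.35, 2.26 and 1.57). CSTB, the cytosolic cystatin B, was 329 and 299 in WT and 715 and 610.5 in WT RT but only 264 and 288 in irradiated IL1R1-KO and 306 and 284 in irradiated IL1RAP-KO cells. SERPINB3 and SERPINB4, near-identical neighbours whose reads could be split between them, were at 10.4 and 9.34 and at 16 and 12.9 in WT RT and under 1 in the 4 irradiated KO libraries. With the scaling used, the responses of KO and WT differed for CSTB by -1.23 (adjusted p = 0.00677) and -1.03 (0.025), and for SERPINB4 by -2.84 (0.00165) and -3.19 (0.00116).

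**Figure D4:**
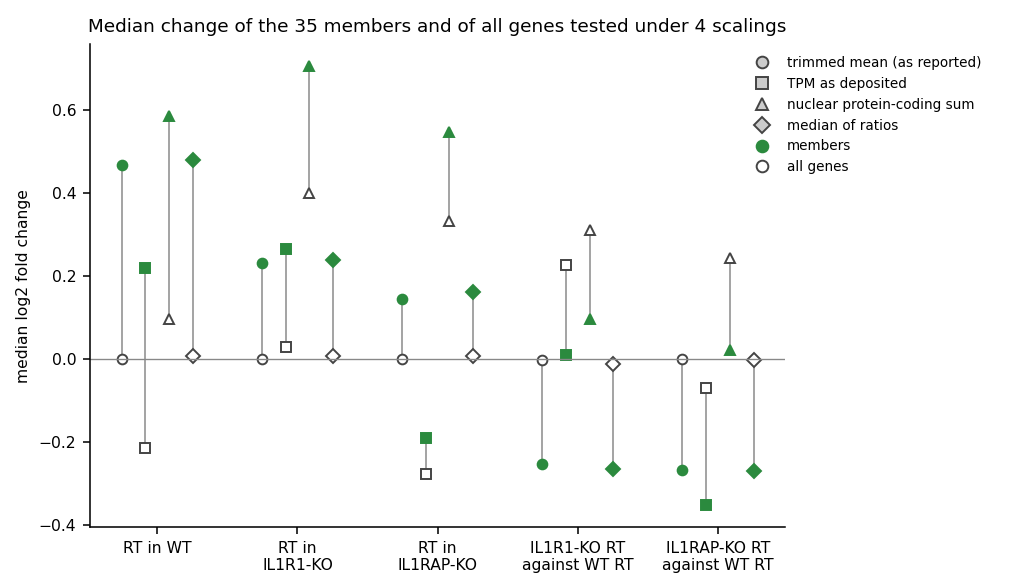
The y axis gives the median log2 fold change of the 35 members (green) and of all 15303 genes tested (open) for 5 comparisons on the x axis, with a marker shape for each of 4 ways to scale the libraries; lines join the members to all genes. The members lie above all genes after RT in each genotype and below them in irradiated KO against irradiated WT cells under each scaling, while the side of 0 on which they lie depends on the scaling in IL1RAP-KO after RT and in both KO comparisons.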

How the data were processed

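RNA of 12 MCF10A libraries (6 groups of 2, grouped by the labels) had been sequenced after rRNA depletion with a stranded total RNA kit. The deposited values are TPM per gene, which the authors made with cutadapt 1.15, STAR 2.5.3a, GRCh38 and HTSeq. The strand setting, the gene lengths behind TPM and the depth are not given in the sources used here, and the authors' own tests were made with DESeq2. TPM come in steps of 0.01, and all 12 single-library tables equal their columns in the joint table.

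Of 60675 genes, the 15303 that reached a TPM of 1 in 2 or more libraries were tested. TPM were divided by trimmed-mean factors (trimming at each end 30% by M and 5% by A), and log2(value + 1) was fitted with limma 3.58.1 in R 4.3.3 as 6 group means with intensity-trended moderation (6 residual and 3.73 prior degrees of freedom), two-sided, with Benjamini-Hochberg adjustment in each of 9 comparisons. A call needs an adjusted p below 0.05 and more than a 2-fold change. The script was tested on simulated data. Alternatives were TPM as deposited, nuclear protein-coding scaling, median-of-ratios factors, a pseudocount of 0.1, no filter, a replicate block, only the libraries compared, and each library left out. p-values measure the spread between 2 libraries a group.

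The members, lists and roles were chosen with earlier results of these data known, and the scaling was taken over from an earlier analysis in which several had been seen. All 35 members are named. Those called in any of the 9 comparisons, and GLB1, are given with the value in each library, though not with every change. From each other list, up to 4 called genes of smallest adjusted p and up to 2 others of highest mean could be named, and a few of these are not reported here. Gene positions are from GENCODE v44 (GRCh38), in which 60419 gene IDs matched, 15253 of them tested.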

Additional observations from a re-analysis of the deposited data

Results flagged for a closer look

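The response to RT differed between KO and WT cells, by the interaction term of the limma fit, for 5 members in IL1R1-KO and 4 in IL1RAP-KO, and both sets of values use the same WT libraries. For CTSC, a dipeptidyl peptidase, the difference between responses was -1.38 on the log2 scale (adjusted p = 0.000289) in IL1R1-KO and -1.08 (adjusted p = 0.00163) in IL1RAP-KO, and all 4 irradiated KO libraries were below both irradiated WT libraries. For CTSS, cathepsin S, it was -1.74 (adjusted p = 0.0195) and -2.26 (adjusted p = 0.00967), from untreated levels near the pseudocount of 1. The CTSS differences passed under 9 of 15 alternatives in IL1R1-KO and 13 of 15 in IL1RAP-KO. For GM2A, the ganglioside activator, the difference between responses was -1.28 (adjusted p = 0.00912) and -1.11 (adjusted p = 0.0279). For CTSB, cathepsin B, it was -0.73 (adjusted p = 0.0235) and -0.69 (adjusted p = 0.042). For ASAH1, the acid ceramidase, it was -0.49 (adjusted p = 0.0449) in IL1R1-KO, while in IL1RAP-KO it was -0.09 (adjusted p = 0.719). The ASAH1 difference in IL1R1-KO passed under 2 of 15 alternatives and was -0.19 (adjusted p = 0.58) with TPM as deposited and -0.13 (0.482) with nuclear protein-coding scaling. The CTSB differences passed under 7 of 15 alternatives in IL1R1-KO and 3 of 15 in IL1RAP-KO, and the GM2A differences did not pass with TPM as deposited (adjusted p = 0.105 and 0.13). The part of the mitochondrial share, which differed among the irradiated libraries, in these values was not tested.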

How the results depend on the processing

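Alternatives changed the size of calls more often than their direction. Of 110 values of single genes, direction and side of the threshold stayed the same for 66 with TPM as deposited, 71 with nuclear protein-coding scaling, all 110 with median-of-ratios factors, 105 with a pseudocount of 0.1, 96 without the filter, 106 with the replicate block and 82 when the fit held only the libraries compared. The counts of members called over 2-fold moved as follows. With TPM as deposited, WT after RT had 3 higher and 2 lower (all genes 4.69% and 10.8%). IL1RAP-KO after RT had 2 and 6 (4.79% and 16.5%), and each interaction had 2 lower (0.516% and 0.425%). Nuclear protein-coding scaling gave 9 higher in WT after RT, 10 in IL1R1-KO and 7 in IL1RAP-KO (7.97%, 17.9% and 15.7%). In each 0 were lower (4.72%, 3.7% and 4.48%). In the same scaling 1 was lower in irradiated IL1R1-KO against WT (1.3%). In irradiated IL1RAP-KO against WT 1 was higher and 1 lower (2.4% and 1.51%). For the interactions 2 and 1 were lower in IL1R1-KO and IL1RAP-KO (0.81% and 0.569%). A pseudocount of 0.1 gave 5 higher in IL1R1-KO after RT, 5 and 3 in IL1RAP-KO, and 2 lower for the IL1R1-KO interaction. Without the filter 2 were lower for each interaction. With only the libraries compared, 1 was lower in irradiated IL1RAP-KO and 2 for its interaction. The counts were the same with median-of-ratios factors and with the replicate block. When each library was left out in turn, 7 to 8 members were higher and 0 lower in WT after RT, 3 to 5 and 2 to 3 in IL1R1-KO, and 3 to 4 and 2 to 3 in IL1RAP-KO. In irradiated KO against WT cells 0 were higher and 3 lower in IL1R1-KO, and 0 to 1 and 2 to 5 in IL1RAP-KO. For the interaction 0 were higher and 1 to 3 lower in IL1R1-KO, and 0 to 1 and 1 to 5 in IL1RAP-KO.

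Changes with the opposite sign were, with TPM as deposited, GLB1 (-0.065) in WT after RT, LAMP2 (-0.047) and SCARB2 (-0.094) in IL1RAP-KO after RT, and LAMP2 (0.023) and GLB1 (0.041) in irradiated IL1R1-KO against WT. With nuclear protein-coding scaling they were CTSL (0.20), GM2A (0.047) and GLB1 (0.32) in IL1R1-KO after RT, LIPA (0.042) and GLB1 (0.24) in IL1RAP-KO after RT, LAMP2 (0.11) and GLB1 (0.13) in irradiated IL1R1-KO against WT, GLB1 (0.11) in irradiated IL1RAP-KO against WT, and GLB1 (0.011) for the interaction in IL1R1-KO. The cause of these moves was not tested beyond the construction of each scaling. Replicate numbers are shared between groups, but same-numbered libraries did not deviate together (15 pairs of groups, r = -0.061 to 0.095, median 0.0082), so they share only a number. With the replicate block 4 of 110 values lost significance, and 8 members were called higher and 0 lower in WT after RT. TPM hold no depth, so precision at low levels such as those of CTSS cannot be given.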
